A study of Mus musculus with 8 samples.

Results

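The genes described here are 9 mRNAs tied to body weight and energy balance, Bdnf, Ntrk2, Sh2b1, Pcsk1, Cpe, Adcy3, Tub, Negr1 and Fto. They were taken by gene name from the deposited expression values, and 9 of 13996 genes carry these names. The samples were cortexes of male C57BL/6 mice, 4 on a conventional (normal) diet and 4 on a diet enriched with fat, eaten for 8 weeks before the brains were taken at 16 weeks of age. Each mouse gave 1 library of total RNA freed of ribosomal RNA, and neither group carries a transgene or a further treatment. The sources used here do not say whether mice shared cages or litters. The comparison asks how a high fat diet alters these RNAs in the cortex, where expression is given as FPKM (fragments per kilobase of transcript, scaled to the mapped reads of the library).

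Body weight is set largely by circuits in which leptin and feeding signals act on hypothalamic neurons. Several of the 9 genes are known from rare forms of obesity or from strains of obese mice. The neurotrophin BDNF acts through its receptor TrkB, the product of Ntrk2, and SH2B1 is an adaptor that binds activated receptor kinases. The convertase PC1/3, made from Pcsk1, and carboxypeptidase E, made from Cpe, act in succession when neuropeptide precursors are cut into active peptides. ADCY3 produces cyclic AMP in neuronal cilia, and the tubby protein carries receptors into cilia. NEGR1 is an adhesion protein on the surface of neurons, and FTO is an RNA demethylase whose gene holds common variants associated with human body mass. All these genes are also transcribed in the cortex, where BDNF and TrkB are best known for their part in synaptic plasticity.

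The tissue label was checked against marker genes, and the diets differed in several of them. The 8 cortical projection neuron markers were present in each mouse, with a summed FPKM of 284 to 431 in normal mice and 477 to 567 on the high fat diet, where 7 of 8 were higher by limma's adjusted p. Among all genes tested, 17.7% were higher and 15.3% lower by limma's adjusted p below 0.05, and each marker count is to be read against these shares. Striatal markers fell in 10 of 10 cases (sums of 270 to 487 against 96.5 to 113) and oligodendrocyte markers in 9 of 9 (2124 to 3498 against 1469 to 2041). Cerebellar markers were lower in 5 of 7, with sums of 22, 261, 353 and 78.5 in normal mice 1 to 4 and 16.2 to 19 in high fat diet fed mice. Thalamic markers fell in 2 of 7, with sums of 31.6 to 104 and 28.3 to 31.3, and hippocampal granule cell markers in 2 of 3, with sums of 14 to 16.7 and 8.3 to 13.2. Astrocyte markers summed to 1272 to 1467 and 1246 to 1322, with 2 of 9 higher and 3 lower. For microglia, 0 of 8 passed limma's adjusted threshold and 1 had an unadjusted p below 0.05 (sums of 166 to 202 and 177 to 189). Gabra6 was listed at 0 in at least 1 mouse, and Drd1, Pcp2, Dsp, Tdo2 and Lct are not analysed here. In bulk tissue, fewer cells of a type and less RNA per cell cannot be told apart, and the part of these marker differences in the results below was not tested except where a value is given.

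In high fat diet fed mice, 6 of the 9 genes were higher by limma's adjusted p below 0.05 (Tub, Pcsk1, Adcy3, Sh2b1, Ntrk2 and Fto), and 0 were lower. Among all 13982 genes tested, 17.7% were higher and 33.1% passed in either direction. The increases ran from 19.1% of the mean FPKM for Fto to 45.6% for Tub. None of the 9 changed by more than 1.5-fold, a limit that 7.13% of all genes passed together with the adjusted p (4.23% higher and 2.9% lower). Bdnf, Negr1 and Cpe had lower means on the high fat diet, with changes of -13.6%, -10.4% and -8.59%, and did not pass, while 15.3% of all genes passed as lower. The values of the diets did not overlap for 8 of the 9 genes, 6 higher and 2 lower, compared with 31.9% of all genes, 17.2% higher and 14.7% lower. The median log2 fold change was 0.26 over the 9 genes and 0.00 over all genes tested. With normal mice 2 and 3 left out, the pair with high cerebellar markers, the same 6 genes passed as higher and Negr1 passed as lower, where 10.9% of all genes were higher and 8.69% lower.

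**Figure D1:**
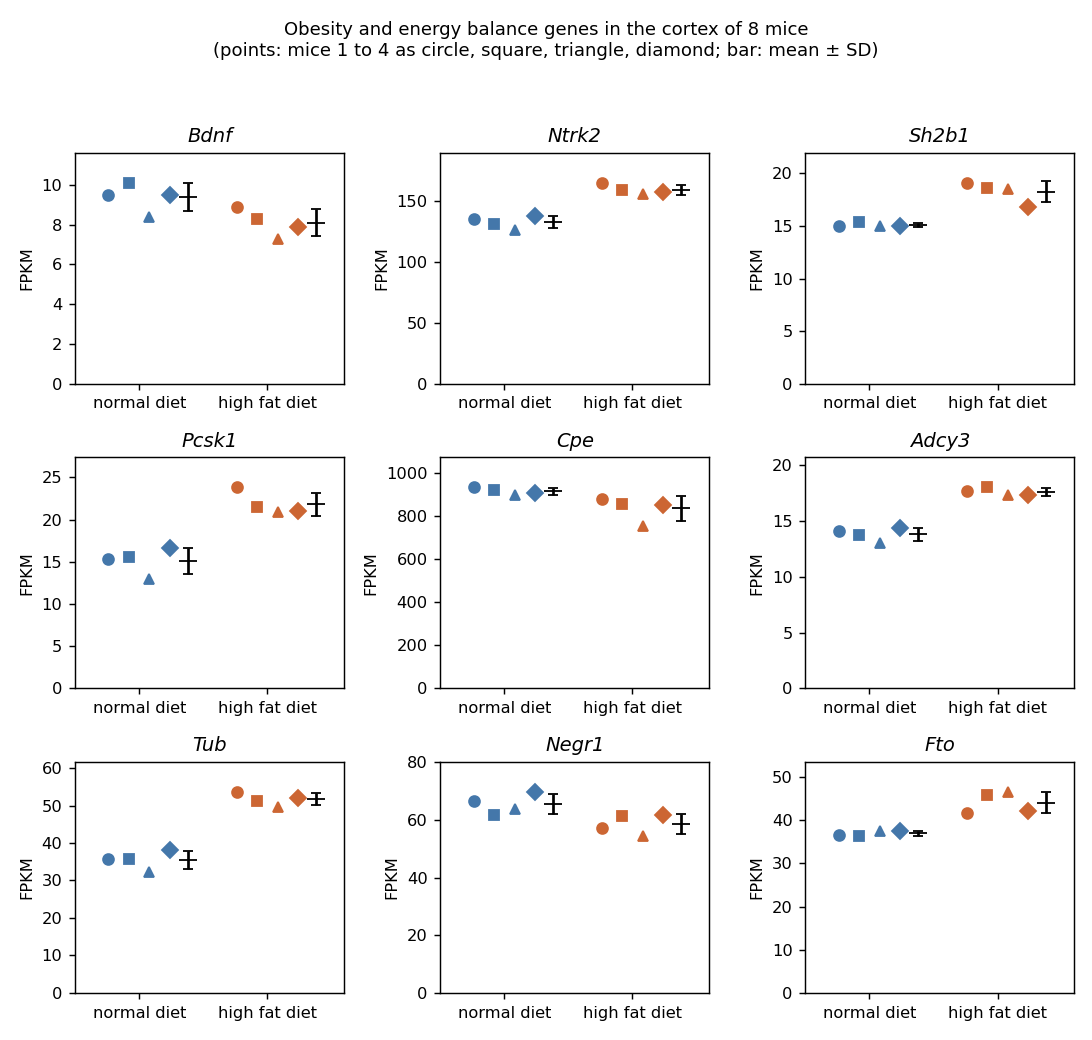
FPKM (linear axis from 0) of each of the 9 genes in every mouse, with normal diet mice in blue and high fat diet fed mice in orange; marker shape gives the mouse number and the black bar the mean ± SD of 4 mice. The orange points lie above all blue points for Ntrk2, Sh2b1, Pcsk1, Adcy3, Tub and Fto, below them for Cpe and Negr1, and partly overlap them for Bdnf.

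The size of each change can be read against the spread of all genes. The middle 50% of genes tested lay between -0.16 and 0.19 on the log2 scale. All 6 increased genes lay above that range, and Bdnf lay below it. Cpe was inside the range, as was Negr1 at -0.16. Cortical projection neuron markers had a median log2 fold change of 0.72, which is larger than that of each of the 9 genes.

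**Figure D2:**
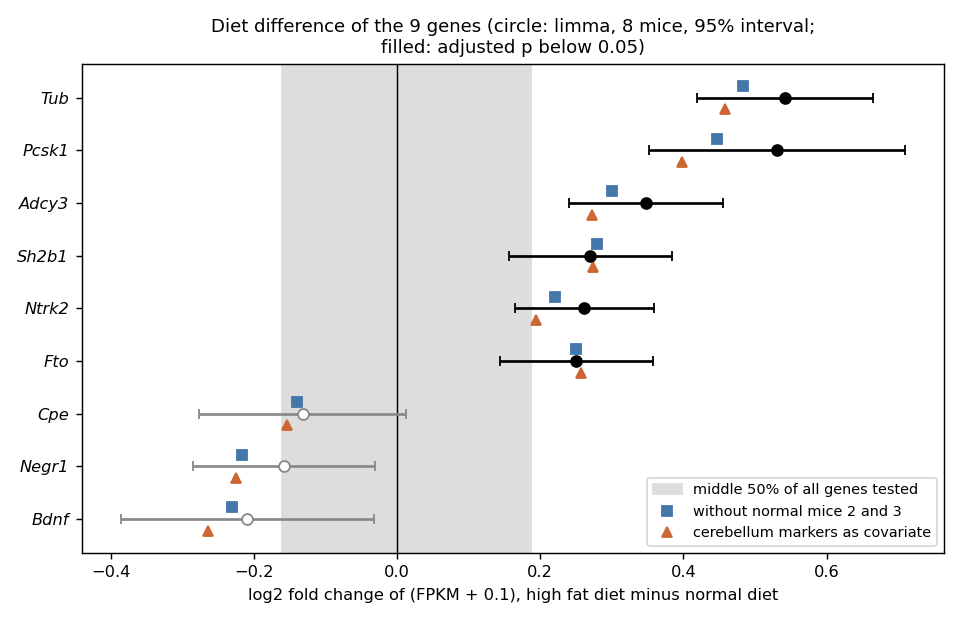
Log2 fold change of FPKM + 0.1 (high fat diet minus normal diet) for the 9 genes, as circles with 95% intervals from limma over 8 mice, filled where the adjusted p is below 0.05. Squares leave out normal mice 2 and 3, triangles hold cerebellar markers as a covariate, and the gray band covers the middle 50% of all genes; every square and triangle stays on the same side of 0 as its circle.

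Bdnf encodes the secreted ligand brain-derived neurotrophic factor (ENSMUSG00000048482.14, chromosome 2 of GRCm38, 109674700 to 109727007, plus strand). Its FPKM was 9.5, 10.1, 8.4 and 9.5 in normal mice 1 to 4 and 8.9, 8.3, 7.3 and 7.9 in high fat diet fed mice 1 to 4. Normal mouse 3 lay below high fat diet fed mouse 1, so the diets overlapped. The means were 9.38 ± 0.709 and 8.10 ± 0.673 (SD, n = 4 each), a log2 fold change of -0.21 (standard error, SE, 0.08, 95% interval -0.39 to -0.03, limma adjusted p = 0.0676). Whether Bdnf passed depended on single mice. It passed without normal mouse 3 (-0.26, adjusted p = 0.0375) or without high fat diet fed mouse 1 (-0.26, adjusted p = 0.0497, both from limma). With any other mouse left out it did not pass (limma adjusted p of 0.106 to 0.163). Nor did it pass without normal mice 2 and 3 (limma adjusted p = 0.0978) or with cerebellar markers as a covariate (limma adjusted p = 0.246). The gene has 11 annotated transcripts with alternative 5' exons, which a single value per gene does not separate.

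Neuronal activity drives the transcription of Bdnf, and the immediate early genes that report such activity were set beside it. Of 11 immediate early genes, 5 were lower on the high fat diet and 0 were higher, compared with 15.3% and 17.7% of all genes. Their summed FPKM was 227 to 345 in normal mice and 168 to 256 in high fat diet fed mice. Fos, a transcription factor gene of this class, was 21.6 ± 1.09 and 9.28 ± 2.02 (SD, n = 4 each), a log2 fold change of -1.24 with limma adjusted p = 0.00065. Arc, whose protein acts at synapses, was 127 ± 26.2 and 73.4 ± 14.6. Npas4, an activity-dependent regulator of Bdnf, was 3.20 ± 1.01 and 4.23 ± 1.22 and did not pass (limma adjusted p = 0.239). Fosb and Egr1 also had higher means and did not pass (log2 fold changes of 0.35 and 0.20, limma adjusted p = 0.0999 and 0.37). Nr4a1 was nearly level at -0.01. Apart from Npas4, these genes were named here after their values had been seen. The part of activity in the Bdnf values was not tested.

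Ntrk2 encodes the BDNF receptor TrkB (ENSMUSG00000055254.15, chromosome 13, 58806569 to 59133970, plus strand). It was 135.5, 131.6, 126.7 and 138 FPKM in normal mice and 165.1, 159.5, 155.6 and 157.3 in high fat diet fed mice. Each high fat diet fed mouse was above each normal mouse, by at least the step from 138 to 155.6. The log2 fold change was 0.26 (SE 0.04, limma adjusted p = 0.00269). Ntrk2 is also abundant in astrocytes, which make a truncated receptor without the kinase, and the 10 annotated transcripts were not separated in these values.

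Sh2b1 encodes the adaptor SH2B1 (ENSMUSG00000030733.10, chromosome 7, 126466994 to 126475424, minus strand). Normal mice held 15, 15.4, 15 and 15 FPKM and high fat diet fed mice 19.1, 18.6, 18.5 and 16.8. Normal mice were almost equal, whereas high fat diet fed mouse 4 was lower than the other mice on its diet but still above all normal mice. The log2 fold change was 0.27 (SE 0.05, limma adjusted p = 0.00432).

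The ratio of ligand to receptor within each library, which cancels any scaling between libraries, is given as a description with no test, since it was chosen with the values of both genes known. The log2 ratio of Bdnf to Ntrk2 was -3.82, -3.69, -3.90 and -3.85 in normal mice and -4.20, -4.25, -4.40 and -4.30 in high fat diet fed mice. All high fat diet fed mice were below all normal mice. The difference was -0.47, or 0.722 of the normal ratio. With each mouse left out in turn it stayed between -0.50 and -0.43.

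Pcsk1 encodes the prohormone convertase PC1/3 (ENSMUSG00000021587.5, chromosome 13, 75089826 to 75134861, plus strand). It was 15.3, 15.6, 12.9 and 16.6 FPKM in normal mice and 23.8, 21.5, 20.9 and 21 in high fat diet fed mice. The lowest mouse on the high fat diet was well above the highest normal mouse. The means were 15.1 ± 1.57 and 21.8 ± 1.36 (SD, n = 4 each), and the log2 fold change of 0.53 (SE 0.08, limma adjusted p = 0.00176) was at percentile 93.9 of all genes.

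Cpe encodes carboxypeptidase E (ENSMUSG00000037852.8, chromosome 8, 64592542 to 64693054, minus strand), which trims the ends left by the convertases and also acts in sorting to secretory granules. It was 934.5, 923.2, 899.1 and 907.5 FPKM in normal mice and 881.8, 859.2, 754.1 and 854.6 in high fat diet fed mice. The diets did not overlap, but high fat diet fed mouse 3 lay far below the others of its diet. The log2 fold change was -0.13 (SE 0.06, 95% interval -0.28 to 0.01, limma adjusted p = 0.143), so a decrease was not called.

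The ratio of convertase to carboxypeptidase is likewise a description, because the values of the diets already did not overlap for either gene, in opposite directions. The log2 ratio of Pcsk1 to Cpe was -5.92, -5.88, -6.11 and -5.76 in normal mice and -5.21, -5.31, -5.17 and -5.34 in high fat diet fed mice. Every high fat diet fed mouse was above every normal mouse, with a difference of 0.66 or 1.58-fold. Cpe remained the far more abundant RNA of the pair on both diets.

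**Figure D3:**
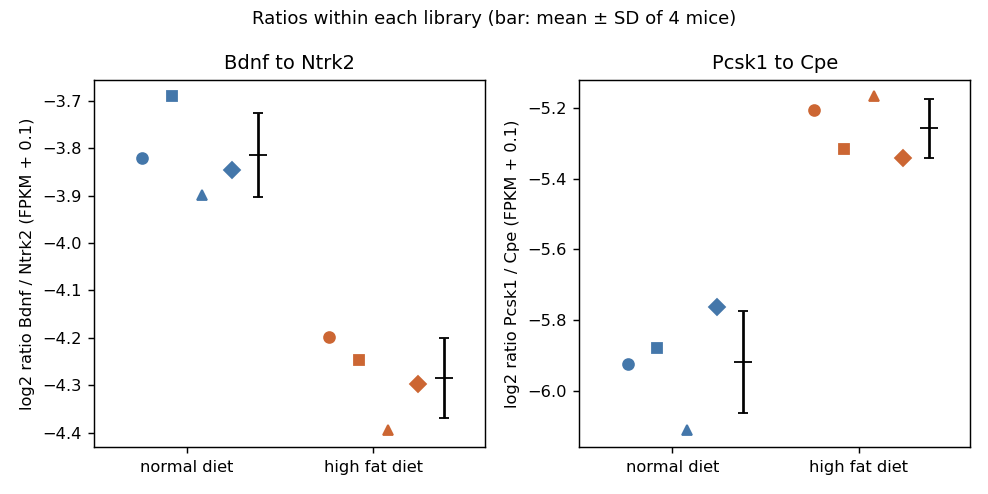
Log2 ratio of FPKM + 0.1 within each library, Bdnf to Ntrk2 at left and Pcsk1 to Cpe at right (the axes do not start at 0), for 4 normal diet mice (blue) and 4 high fat diet fed mice (orange), with mean ± SD. The diets do not overlap in either ratio, which is lower on the high fat diet for Bdnf to Ntrk2 and higher for Pcsk1 to Cpe.

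Pcsk1 and Bdnf are both known to respond to cyclic AMP through the factor CREB, so the promoters of the 9 genes were searched for its response element in the 250 bases before each start. The letters TGACGTCA, the full palindromic element, and TGACG, its shorter form, which is part of the full one, were searched on both strands in 32851 RefSeq promoters of GRCm38.p6. Promoters were found for 8 of the 9 genes, 16 in all, with the exception of Cpe. The full element stood in 1 of the 16, compared with 1.55% of all promoters, and the shorter form in 3 of the 16, compared with 17.8%. Matches were found for Pcsk1, Sh2b1 and Bdnf only. The promoters of Tub, Adcy3, Ntrk2, Fto and Negr1 held neither form. The windows that hold a match are shown 5' to 3' on the strand of the gene, with the match in capitals.
Pcsk1 full element: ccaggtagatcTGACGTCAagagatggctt
Pcsk1 shorter form: ctttcgtcgattTGACGtgtaaacactcat
Bdnf shorter form, reverse strand: tatgacagctcaCGTCAaggcagcgtggag
Sh2b1 shorter form: atttgcttcggaTGACGgacccaacgcctt
Distances are to the RefSeq start of each promoter, which can lie inside the GENCODE gene span given here. In Pcsk1 the full element began 78 bases before that start (window chr13:75089768-75089797) and the second match 50 bases before it (chr13:75089795-75089824). The Bdnf match belonged to 1 of its 7 promoters and began 35 bases before the start (chr2:109692389-109692418). In Sh2b1 it began 198 bases before the start of 1 of 2 promoters (chr7:126475311-126475340, gene on the minus strand). These matches describe letters only, and the search was chosen after the values had been seen.

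Tub encodes the tubby protein, whose loss causes obesity with age in the mouse (ENSMUSG00000031028.14, chromosome 7, 108950338 to 109034460, plus strand). It was 35.8, 35.8, 32.3 and 38.1 FPKM in normal mice and 53.6, 51.3, 49.7 and 52.1 in high fat diet fed mice. No value came near the other diet. With means of 35.5 ± 2.39 and 51.7 ± 1.63 (SD, n = 4 each), Tub had the largest log2 fold change of the 9 genes, 0.54 (SE 0.05, limma adjusted p = 0.000506). Its last 149 bp overlap Ric3 on the opposite strand, which encodes a chaperone of acetylcholine receptors. Ric3 moved the other way, from 28.5 ± 0.839 to 24.7 ± 1.12 FPKM (log2 fold change -0.21, limma adjusted p = 0.00938), and the sources used here do not say whether counting used strand.

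Adcy3 encodes adenylyl cyclase 3 (ENSMUSG00000020654.15, chromosome 12, 4133103 to 4213525, plus strand), a standard marker of neuronal cilia. It was 14.1, 13.7, 13 and 14.4 FPKM in normal mice and 17.7, 18, 17.3 and 17.3 in high fat diet fed mice. Both groups were tight and apart. The log2 fold change was 0.35 (SE 0.05, limma adjusted p = 0.00129). The gene shares 17522 bp with Cenpo on the opposite strand, a centromere protein gene at 1.35 ± 0.173 and 1.30 ± 0.141 FPKM.

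Negr1 encodes a GPI-anchored adhesion protein of the IgLON family (ENSMUSG00000040037.13, chromosome 3, 156561794 to 157316445, plus strand). At 754.7 kb it is the longest of the 9 genes. It was 66.5, 61.7, 63.7 and 69.7 FPKM in normal mice and 57.2, 61.4, 54.3 and 61.6 in high fat diet fed mice. The diets were separated by the step from 61.6 to 61.7, the rounding step of the values. The log2 fold change was -0.16 (SE 0.06, 95% interval -0.29 to -0.03, limma adjusted p = 0.058). Without normal mice 2 and 3 it was -0.22 (limma adjusted p = 0.0471), the only alternative in which Negr1 passed. With each single mouse left out the limma adjusted p was 0.0554 to 0.135, and with cerebellar markers as a covariate 0.163.

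Fto encodes the RNA demethylase FTO (ENSMUSG00000055932.15, chromosome 8, 91313525 to 91668439, plus strand). It was 36.6, 36.4, 37.5 and 37.4 FPKM in normal mice and 41.7, 45.8, 46.5 and 42.2 in high fat diet fed mice. Normal mice lay close together, and the high fat diet fed mice were all higher and more spread. The log2 fold change was 0.25 (SE 0.05, limma adjusted p = 0.00447), the smallest of the 6 increases.

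The cerebellar signal differed among normal mice. Normal mouse 1 had the lowest cerebellar sum of its diet, 22, and the highest striatal sum of all mice, 487. Like every normal mouse, it lay below all high fat diet fed mice in the 6 increased genes, which restates that the diets did not overlap there. Without normal mice 2 and 3, the log2 fold changes of Tub, Pcsk1, Adcy3, Ntrk2, Sh2b1 and Fto were 0.48, 0.45, 0.30, 0.22, 0.28 and 0.25 (adjusted p between 0.00263 and 0.0254 from limma). With the mean of the cerebellar markers as a covariate, Tub remained past the threshold (0.46, SE 0.08, limma adjusted p = 0.0241). The other 5 kept their direction but not the call: Pcsk1 was at 0.40 (adjusted p = 0.0872), Adcy3 at 0.27 (0.0626), Sh2b1 at 0.27 (0.089), Fto at 0.26 (0.0855) and Ntrk2 at 0.19 (0.109, all adjusted p from limma). In the same order their SEs were 0.12, 0.07, 0.08, 0.08 and 0.07, each larger than without the covariate. The estimates of Tub, Pcsk1, Adcy3 and Ntrk2 fell, from 0.54, 0.53, 0.35 and 0.26 without the covariate, and those of Sh2b1 and Fto did not. In that fit 779 of all genes passed (5.57%), compared with 4626 without the covariate. No normal mouse had a striatal sum near the 96.5 to 113 of high fat diet fed mice. Sums of cortical projection neuron markers (284 to 431 in normal mice, 477 to 567 on the high fat diet) did not overlap either. The same held for oligodendrocyte markers (2124 to 3498 and 1469 to 2041) and hippocampal granule cell markers (14 to 16.7 and 8.3 to 13.2). For all these markers diet and tissue content cannot be told apart, and neither fit above takes them into account.

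Within each diet, the same mouse number held most of the low values, and the reason was not tested. Normal mouse 3 was lowest or tied for lowest in 7 of the 9 genes, and high fat diet fed mouse 3 likewise in 7 of 9, although Fto was highest in both. The mice with the same number are not related by the labels. Normal mouse 4 was highest in 5 genes and high fat diet fed mouse 1 in 6.

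FPKM corrects for transcript length, so the levels of the genes can be ordered. In normal mice Cpe was highest at 916 FPKM, followed by Ntrk2 (133), Negr1 (65.4), Fto (37.0), Tub (35.5), Pcsk1 and Sh2b1 (both 15.1), Adcy3 (13.8) and Bdnf (9.38). Cpe stood at percentile 99.7 of all genes tested and Bdnf at percentile 46.5. The ranges of neighbors overlapped for Fto and Tub, for Pcsk1 and Sh2b1 and for Pcsk1 and Adcy3, and not for the other neighbors. In high fat diet fed mice Tub (51.7) stood above Fto (44.0) and Pcsk1 (21.8) above Sh2b1 (18.2) without overlap, and only Sh2b1 and Adcy3 (17.6) overlapped. The mice spread most for Pcsk1 in the normal diet, with a coefficient of variation of 10.4%, and least for Sh2b1, with 1.32%.

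Genes with related roles were taken from textbook lists, and each count over 8 mice is to be read against the 33.1% of all genes that passed in either direction. With mice left out, fewer of all genes passed, and the share of that fit is given beside each such count. Of 21 neurotrophin signaling genes tested, 10 were higher and 1 was lower. Ntrk3, the receptor of neurotrophin 3, was among the higher genes, at 36.1 ± 1.10 and 46.9 ± 3.03 FPKM. Crtc1, a coactivator of CREB, rose from 10.9 ± 1.20 to 17.1 ± 2.27 FPKM (log2 fold change 0.64, limma adjusted p = 0.00251), and Sh2b2, a relative of Sh2b1, from 1.88 ± 0.263 to 2.55 ± 0.311. The phosphatase gene Ptpn11 fell from a mean of 42.1 to 34.9 (log2 fold change -0.27, SE 0.06, limma adjusted p = 0.00688). The count of 11 was 6 without normal mouse 2, high fat diet fed mouse 2 or high fat diet fed mouse 3, where 23.6%, 23.6% and 27% of all genes passed. It was 7 without normal mouse 3 (25.9% of all genes) or high fat diet fed mouse 1 (25.3%), and 6 with normal mice 2 and 3 both left out (19.6%).

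In the secretory pathway that PC1/3 and carboxypeptidase E serve, 7 of 19 genes tested were higher and 5 were lower. Pcsk5, another convertase, rose from 2.58 ± 0.670 to 4.35 ± 0.387 FPKM (log2 fold change 0.77, limma adjusted p = 0.00855). Vgf, a granule protein precursor that PC1/3 cuts, rose from 42.5 ± 5.47 to 63.0 ± 9.16 (0.57, limma adjusted p = 0.00637). Scg2, which encodes secretogranin II, fell from 138 ± 11.2 to 82.7 ± 3.40 FPKM (-0.74 on the log2 scale, limma adjusted p = 0.000206). Cadps2, which acts in granule release, fell from a mean of 43.0 to 28.1 (log2 fold change -0.61, limma adjusted p = 0.000903). The total of 12 was 7 without normal mouse 3 (25.9% of all genes) or without high fat diet fed mouse 2 (23.6%), and 6 without normal mice 2 and 3 (19.6%).

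Among the other adenylyl cyclases, 4 of 7 tested were higher and 1 was lower, and the median log2 fold change was 0.27. Adcy8 and Adcy1, which calcium and calmodulin stimulate, rose from 6.45 ± 0.520 to 9.00 ± 0.735 FPKM and from 121 ± 1.40 to 153 ± 12.7. Adcy5, the main cyclase of striatal neurons, fell from 36.8 ± 4.57 to 22.8 ± 0.913 (log2 fold change -0.68, limma adjusted p = 0.000842), beside the lower striatal markers given above. Among leptin and melanocortin genes, 3 of 16 tested were higher and 3 lower. Mgrn1, which encodes the ubiquitin ligase mahogunin, rose from 60.9 ± 1.09 to 75.9 ± 1.31, and Npy1r, a receptor of neuropeptide Y, from 7.45 ± 1.76 to 11.1 ± 0.432. Cartpt, a neuropeptide precursor gene, fell from 5.70 ± 1.35 to 2.40 ± 0.271 FPKM (log2 fold change -1.19, limma adjusted p = 0.00121) and Npy2r from 3.62 ± 0.403 to 2.05 ± 0.719. The count of 6 in this list became 10 without normal mouse 1 (31.7% of all genes). Hypothalamic markers were low, and the 4 of 12 analysed here summed to 4.5, 29.7, 27.7 and 8.2 FPKM in normal mice 1 to 4, compared with 2.7 to 5.4 on the high fat diet. Pmch alone supplied 24.7 and 17.8 of the sums in normal mice 2 and 3. It passed as lower with overlapping values.

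Relatives of Negr1, Tub and Fto gave few calls. In the IgLON family 0 of 4 tested genes passed limma's adjusted threshold and 2 had an unadjusted p below 0.05, and 1 passed as higher without normal mouse 4 (33% of all genes) or without high fat diet fed mouse 4 (28.3%). Of the tubby-like genes 0 of 2 passed, with 0 at an unadjusted p below 0.05. Of the genes around Fto on chromosome 8, 0 of 4 tested passed by limma, with 0 at an unadjusted p below 0.05. Among writers, readers and erasers of m6A, the RNA mark that FTO can remove, 1 of 12 was called. This was Wtap, a subunit of the methyltransferase complex, which fell from 21.2 ± 0.860 to 18.3 ± 0.920 FPKM. The count was 2 without normal mouse 4 (33% of all genes) and 0 without normal mice 2 and 3 (19.6%).

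Other genes named for loci of human body mass index were counted for comparison, and 5 of 24 tested were higher and 7 lower, with a median log2 fold change of -0.10. Etv5, a transcription factor gene, rose from 24.8 ± 2.40 to 36.6 ± 4.09 FPKM (log2 fold change 0.56, limma adjusted p = 0.00246), and Faim2, an inhibitor of Fas signaling, from 50.8 ± 3.16 to 71.7 ± 4.94. Kctd15 fell from 4.83 ± 0.222 to 3.67 ± 0.206, and Mtch2, a mitochondrial outer membrane protein gene, from 31.6 ± 2.53 to 24.5 ± 1.27. The total of 12 was 7 without normal mice 2 and 3 (19.6% of all genes).

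**Figure D4:**
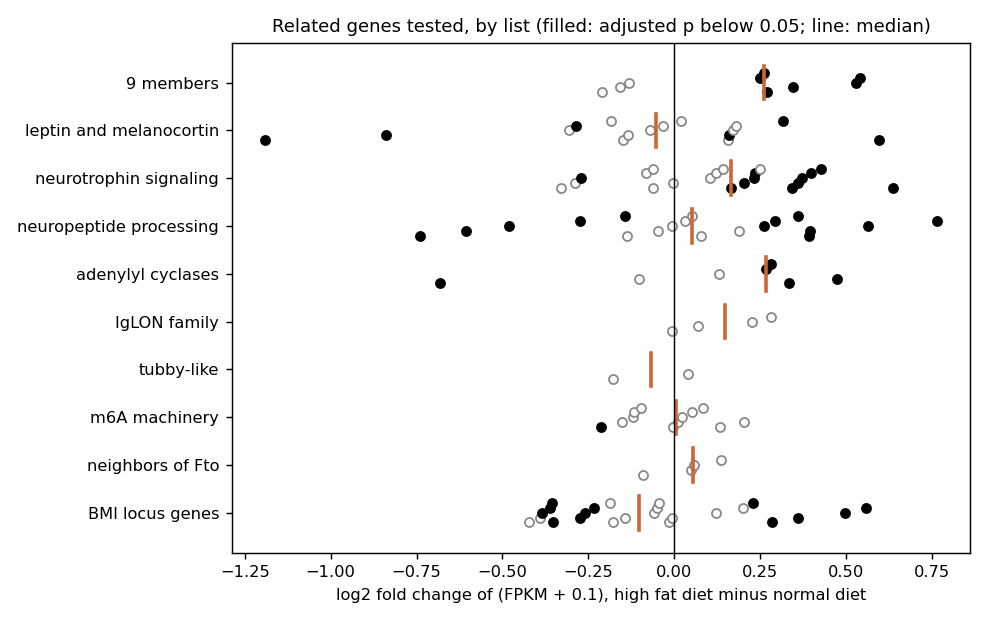
Log2 fold change of FPKM + 0.1 (high fat diet minus normal diet) of each tested gene in the lists of related genes, with the 9 members in the top row; each point is a gene, filled where limma's adjusted p is below 0.05, and the orange line is the median of the list. The medians run from -0.10 for the BMI locus genes to 0.27 for the adenylyl cyclases, with the 9 members at 0.26.

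For each of the 9 genes, the most similar patterns over the 8 mice were sought among genes with a mean of at least 10 FPKM, by the root mean square difference of centered log2 values. The nearest genes were Soga3 and Ncs1 for Ntrk2, Chd8 and Phrf1 for Fto, Unc79 for Adcy3, Slc6a8 and Prpf40b for Sh2b1, Smad3 and Klf6 for Tub, and Adam15 and a gene known by a clone name for Pcsk1. For the remaining genes they were Bag1 and Ube2v2 (Bdnf), Mfsd14a and Carkd (Cpe) and Nucks1 and Atp2c1 (Negr1). The closest match was Soga3 to Ntrk2, with a difference of 0.0163, and the loosest nearest match was Adam15 to Pcsk1, with 0.0723. These distances include the difference between diets and are a description only.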

How the data were processed

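Cortex RNA of 4 mice on each diet was sequenced in stranded libraries read from both ends. The authors obtained FPKM from Cuffnorm with GENCODE M17, after Trimmomatic and STAR alignment to mm10. The sources used here give no versions of these tools. The deposited FPKM are rounded to 0.1, and their depth is unknown, so no counting interval can be given. FPKM summed to 562431 to 639142 a mouse.

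Diets were compared on log2(FPKM + 0.1) by limma 3.58.1 under R 4.3.3 (variance trend, two-sided, Benjamini-Hochberg adjustment) over 13982 genes with a mean of at least 1 FPKM and no 0. Fold changes on this scale understate those of low genes. P-values set the difference between diets against the spread among these mice, and cannot separate diet from tissue content that differs between the groups. Ratios, calculated in Python 3.11.15, are given without the planned exact permutation test, since the values of the genes fixed or prompted their separation. Positions come from GENCODE M21, a later release on the same build. The members and lists were chosen with earlier results of these data known. Named from each list were up to 2 genes higher and 2 lower with the largest change among those past the threshold, and the 2 nearest patterns of each member, of which 1 is not reported here. Ntrk3, the marker genes and genes overlapping a member were named after their values were seen. Alternatives were another added constant, other filters, a replicate block, a fit without the variance trend, quantile normalization, rescaling, a cerebellar covariate and each mouse left out. Leaving out normal mice 2 and 3 together was added after seeing the data. The procedure was tested on simulated data. CircRNA counts and the second quantification were not used here.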

Additional observations from a re-analysis of the deposited data

Results flagged for a closer look

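In the normal diet group, Sh2b1 was 15.4 FPKM in mouse 2 and 15 in each of the other mice, so that mouse alone made up the whole range of its group. The distance is 4 rounding steps of 0.1 FPKM. Of 22 groups of 4 values checked in this way, 1 was marked, and chance marks about 1 in 20.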

How the results depend on the processing

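Across 17 alternatives for each of the 9 genes, 145 of 153 results kept their direction and their side of the threshold, 5 lost the call and 3 gained it, and 0 changed sign. The 5 losses came with cerebellar markers as a covariate, where 1 member passed in place of 6. In that fit the lists held 2 leptin and melanocortin genes, 3 neurotrophin signaling genes, 2 neuropeptide processing genes, 1 adenylyl cyclase, 0 m6A genes and 3 BMI locus genes, where 5.57% of all genes passed. Leaving out normal mice 2 and 3 gave 6 neurotrophin, 6 neuropeptide, 0 m6A and 7 BMI locus genes, where 19.6% of all genes passed. With each mouse left out, members past the threshold numbered 6 to 7, leptin and melanocortin genes 5 to 10, neurotrophin genes 6 to 10, neuropeptide genes 7 to 10, IgLON genes 0 to 1 and m6A genes 1 to 2, where 23.6% to 33% of all genes passed. The difference between diets in the log2 ratio of Pcsk1 to Cpe stayed between 0.60 and 0.71. The cause was not tested. With the replicate number as a block, 0 m6A genes passed, and the differences of the 2 ratios were -0.47 and 0.66, as without it. The block changed no call of a member and moved the count over all genes from 4626 to 3390. Same-numbered mice did not deviate together over all genes (correlations of -0.109 to -0.0275). These deviations also carry the uneven cerebellar markers of normal mice, so they cannot decide whether the numbers pair the mice. Depth is unknown, and rounding to 0.1 limits genes near 1 FPKM most.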

Other observations

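Inside Negr1, 5 genes of the provisional class TEC are listed on the same strand, all outside its annotated exons. Their summed FPKM was 7.8 to 10.1 in normal mice and 9.3 to 11.2 on the high fat diet. Of the 5, 4 had a log2 fold change above 0, whereas that of Negr1 was -0.16. By limma 0 of the 5 passed the adjusted threshold. The nearest to it was RP23-354G14.1, at 2.83 ± 0.465 and 3.70 ± 0.560 FPKM (log2 fold change 0.38, SE 0.14, limma adjusted p = 0.0683), located at 156646320 to 156648889 on chromosome 3.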
